A study of Homo sapiens with 8 samples.

Results

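The genes described here build the centromere and kinetochore, guard the attachment of chromosomes to the spindle, or protect and release the cohesion between sister chromatids. They were measured in DLD1, an established human colorectal cancer cell line, after depletion of UHRF1 and inhibition of histone deacetylases. Members were taken by name: every probe on the arrays that carried 1 of 44 gene names and was not a control spot. All 44 genes were present, with 60 probes among the 50599 different probes of the array. The genes fell into 15 constitutive centromere genes, 15 outer kinetochore genes, 6 checkpoint genes, 3 genes of the chromosomal passenger complex, 4 genes of cohesion protection and release, and CENPJ, which bears a CENP name and encodes a centriole protein.

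DLD1 cells received a control siRNA (siCONT) or 1 of 2 siRNAs against UHRF1 (siUHRF1-1 and siUHRF1-2) for 48 h. They were then given ethanol (mock) or 300 nM trichostatin A (TSA), a histone deacetylase inhibitor, for 24 h more. UHRF1 guides DNMT1 to newly replicated DNA, where DNMT1 copies the methylation of the parental strand. The 4 groups, siCONT mock, siUHRF1 mock, siCONT TSA and siUHRF1 TSA, held 2 arrays each. The transfection was transient, so every group is a population of 1 line and not a clone, and all groups shared the culture medium and the transfection reagent.

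A centromere is set by nucleosomes that contain CENP-A, a histone H3 variant placed there by its chaperone HJURP. The constitutive centromere proteins sit on this chromatin through the cell cycle, and in mitosis they recruit the outer kinetochore, whose NDC80 complex binds microtubules. HJURP is counted with the constitutive genes here as the chaperone of CENP-A, and not as a standing part of the centromere. The spindle checkpoint holds the cell before anaphase while kinetochores lack attachment. The chromosomal passenger complex corrects wrong attachments, shugoshins protect centromeric cohesin, and separase cuts cohesin once its inhibitor securin is gone. Many of these genes are transcribed mainly in G2 and mitosis in dividing cells.

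Promoters of genes with this timing are known for 2 short motifs, the CHR (cell cycle genes homology region) and the CCAAT box. RefSeq windows of 250 bases before and 50 after the transcription start were available for 37 of the 44 members, matched by gene identifier. Both strands were searched for the CHR, spelled TTTGAA in one form and, in the palindromic form, TTCGAA. The CCAAT box was searched as those letters. Sites like those of E2F were searched as TTTGGCG, with variants that differ within the heptamer and are spelled TTTCCCG in the next form, then with a central CG pair as TTTCGCG, and last with a central GC pair as TTTGCCG. A CHR stood in 21 of the 37 windows (56.8%) and in 16.6% of all 27305 RefSeq promoter windows, which include those of noncoding genes. A CCAAT stood in 23 of 37 (62.2%) against 35.7% of all, and both motifs together in 15 of 37 (40.5%) against 6.58%. One of the E2F-like heptamers stood in 5 of 37 (13.5%) against 8.69%. A match is a description of the letters and not evidence of a bound factor.

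Upstream sequence is shown for 6 members that fell strongly or that stand for a role, and for CENPB, which hardly moved. The windows of these 6 all hold both motifs, so they do not stand for the members that fell. Both motifs stood in 12 of the 22 windows of members called lower with UHRF1 depletion and TSA together. CENPE had neither motif, and BUB1B, NUF2 and NDC80 had a CHR without a CCAAT, though each fell more than ZWINT. Each line is the 150 bases that precede the RefSeq start, in lower case, read in the direction of transcription, with motif letters in capitals.
HJURP (GRCh38.p14, chr2:233854536-233854685, minus strand): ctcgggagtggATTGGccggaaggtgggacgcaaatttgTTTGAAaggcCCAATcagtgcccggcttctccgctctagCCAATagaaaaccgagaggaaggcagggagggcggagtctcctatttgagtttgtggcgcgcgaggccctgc
CENPA (GRCh38.p14, chr2:26785906-26786055, plus strand): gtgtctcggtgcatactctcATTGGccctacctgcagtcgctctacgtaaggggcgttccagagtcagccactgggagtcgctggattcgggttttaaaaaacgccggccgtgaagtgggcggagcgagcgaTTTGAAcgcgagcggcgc
BUB1 (GRCh38.p14, chr2:110678064-110678213, minus strand): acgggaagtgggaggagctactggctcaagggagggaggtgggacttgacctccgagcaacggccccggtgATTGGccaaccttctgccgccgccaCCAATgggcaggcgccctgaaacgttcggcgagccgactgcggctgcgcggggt
CDCA8 (GRCh38.p14, chr1:37692366-37692515, plus strand): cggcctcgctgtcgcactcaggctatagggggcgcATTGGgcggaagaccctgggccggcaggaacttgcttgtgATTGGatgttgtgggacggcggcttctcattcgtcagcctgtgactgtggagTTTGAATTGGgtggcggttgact
INCENP (GRCh38.p14, chr11:62123861-62124010, plus strand): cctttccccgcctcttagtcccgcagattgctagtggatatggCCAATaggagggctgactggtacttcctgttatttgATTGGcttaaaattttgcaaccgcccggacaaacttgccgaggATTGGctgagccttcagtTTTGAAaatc
ZWINT (GRCh38.p14, chr10:56361260-56361409, minus strand): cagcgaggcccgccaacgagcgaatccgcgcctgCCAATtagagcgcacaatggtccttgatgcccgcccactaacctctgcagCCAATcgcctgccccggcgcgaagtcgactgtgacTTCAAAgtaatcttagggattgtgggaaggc
CENPB (GRCh38.p14, chr20:3786741-3786890, minus strand): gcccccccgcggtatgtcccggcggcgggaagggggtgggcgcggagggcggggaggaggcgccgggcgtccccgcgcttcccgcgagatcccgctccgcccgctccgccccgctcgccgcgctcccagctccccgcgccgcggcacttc
The CDCA8 stretch holds a CHR that shares its last base with a CCAAT on the opposite strand. The BUB1 window has its CHR only after the start, outside the stretch shown. The CENPB stretch is rich in G and C and holds none of these letters in capitals.

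Levels are given as log2 of the processed signal minus the 75th percentile of the array, so that 0 is the level of the upper-quartile probe. A probe was called when its limma adjusted p was under 0.05 and its change at least 2-fold. Each gene is represented by its brightest probe, and each of these 44 probes passed Agilent's test for signal well above background on every array. The siCONT arrays of one agent differed by 0.743 (mock) and 0.775 (TSA) of the noise expected from repeated spots, against 9.25 and 7.72 for the siUHRF1 arrays. The siCONT groups are therefore given without an SD. The main fit still took both siCONT arrays of an agent as separate, which can understate the spread. Each SE and adjusted p is from that fit unless stated otherwise. Counts of calls are also given for a fit with these arrays averaged as 1 sample. The siUHRF1 groups are given as mean ± SD over 2 siRNAs. Mock and TSA arrays lay in different rows of 1 slide, so agent and slide row cannot be told apart.

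Probes well above background made up 43.3% to 48.0% of all probes per array. With its brightest probe, UHRF1 itself fell by 1.83 on the log2 scale under mock (limma adjusted p = 0.0233). With the siCONT arrays as 1 sample, 0 of 22391 tested probes were called lower under mock, so UHRF1 was not called either. Under TSA it fell by 2.87 (adjusted p = 0.00462). TSA alone changed it by -0.97 in siCONT cells (adjusted p = 0.0258), which is under 2-fold. Its second probe changed by -1.71 under mock (adjusted p = 0.0652), which was not called. All 7 colon epithelial markers examined (EPCAM, CDH1, KRT8, KRT18, KRT20, VIL1 and CDX2) passed the background limit on every array. Of 7 markers of other cell types, only DES was above background on all arrays, and 4 (PTPRC, CD3E, COL1A2, PECAM1) were above background on at most 1 array. VWF was above background on 6 arrays and COL1A1 on 4, the TSA arrays, and their part in the results below was not tested.

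The probes below show what was hybridised for members that carry the results. Each is the full probe, 60 bases in lower case, with the genome position that the array annotation gives.
BUB1 (hg19, chr2:111395699-111397340, minus strand): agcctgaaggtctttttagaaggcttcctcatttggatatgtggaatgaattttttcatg
MAD2L1 (hg19, chr4:120981346-120981405, minus strand): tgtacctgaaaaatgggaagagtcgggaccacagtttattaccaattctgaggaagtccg
SGOL1 (hg19, chr3:20212615-20212674, minus strand): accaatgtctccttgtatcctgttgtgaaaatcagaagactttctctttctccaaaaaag
The BUB1 probe spans 1642 bases of the genome and so crosses an intron. Across the members, 8 of 60 probes cross an intron in this way.

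The first comparison asked what UHRF1 depletion did without TSA. No member was called, while 0.616% of 22391 tested probes were called lower, and with the siCONT arrays as 1 sample the share was 0.0%. The median change of the 44 members was -0.32 on the log2 scale against -0.10 over all tested probes, and 33 of 44 lay below 0, as did 59.1% of all tested probes. At an unadjusted p under 0.05 there were 14 of 44 members, close to the 26.6% of all tested probes. CENPM (0.40) and ZWINT (0.51) were higher among these, and the rest, HJURP, CENPI, CENPK, CENPL, CENPQ, CENPW, CENPJ, SPC25, BUB1, INCENP, PTTG1 and SGOL1, were lower. INCENP (-0.90) and SGOL1 (-0.998) passed the adjusted p without reaching a 2-fold change, as 3.68% of tested probes passed it at any fold. The lowest medians were those of cohesion protection and release (-0.80) and the highest that of the outer kinetochore (-0.15).

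Under mock, most members had a lower level on the siUHRF1-2 array than on the siUHRF1-1 array. MAD2L1, which carries the inhibitory signal of the checkpoint, was at 3.04 and 3.02 in siCONT, at 3.31 with siUHRF1-1 and at 2.04 with siUHRF1-2. In the mock arrays the level with siUHRF1-2 was below that with siUHRF1-1 for 37 of 44 members, against 46.5% of 19898 probes above background on all arrays. The median difference was -0.35 for the members and 0.04 for all those probes. Differences over 2-fold were seen for 4 of 44 members, against 4.7% of those probes, namely for MAD2L1, for the checkpoint kinase TTK, for SGOL2 and for KNTC1, a subunit of the RZZ complex that brings dynein and checkpoint proteins to kinetochores. Under TSA, siUHRF1-2 was below siUHRF1-1 for 17 of 44 members, against 54.2% of the same 19898 probes. The median difference under TSA was 0.11 for the members and -0.03 for all those probes. Each value rests on 1 array per siRNA and agent, so the difference between the siRNAs was not tested. Without the siUHRF1-1 mock array, 6 members would be called for UHRF1 depletion under mock.

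**Figure D1:**
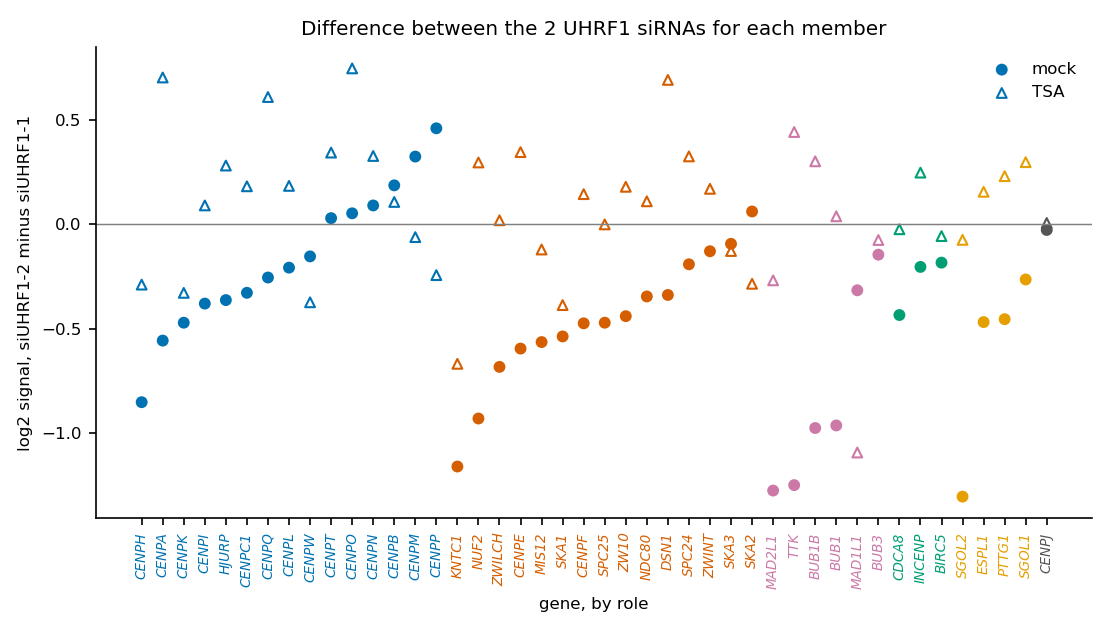
Log2 signal with siUHRF1-2 minus that with siUHRF1-1 (vertical axis) for each of the 44 members, ordered by role and coloured by role (constitutive centromere blue, outer kinetochore orange, checkpoint pink, chromosomal passenger green, cohesion yellow, centriole grey). Filled circles are the mock arrays, of which 37 lie below 0, and open triangles the TSA arrays, of which 17 lie below 0.

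TSA alone lowered a limited set. Called lower in siCONT cells were 8 of 44 members, against 7.98% of 23239 tested probes, and no member was called higher. All 3 chromosomal passenger genes were among them, with 2 cohesion genes (PTTG1 and SGOL1), and 1 gene each of the centromere (HJURP), the outer kinetochore (SPC25) and the checkpoint (BUB1). The median change was -0.47 over the members and -0.11 over all tested probes.

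The largest fall was that of INCENP, the scaffold of the passenger complex. Its level was 3.48 and 3.51 in siCONT mock, 2.70 and 2.50 with siUHRF1 mock, 2.02 and 1.99 in siCONT TSA, and 1.03 and 1.28 with siUHRF1 TSA. The groups did not overlap, and the change with TSA alone was -1.50 (SE 0.15, limma adjusted p = 0.00228). PTTG1, which encodes securin, went from 6.77 and 6.81 to 5.38 and 5.35 with TSA alone, a change of -1.43. HJURP fell by 1.40 on the log2 scale. With the siCONT arrays as 1 sample none of the 8 was called, and 0.0818% of all probes were. Leaving out any 1 of the 4 siCONT arrays left 4 or 5 members called.

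With UHRF1 depletion and TSA together, most of the members fell. Called lower against siCONT mock were 28 of 44, against 10.9% of 23734 tested probes, and 1 member, MAD1L1, was called higher, against 14.3% of the probes. The median change was -1.44 over the members and -0.14 over all tested probes. With the siCONT arrays as 1 sample, 20 members were called lower, against 3.8% of probes. RNA was taken from whole cultures, so fewer cells in the phases that express these genes and less RNA per cell cannot be told apart.

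**Figure D2:**
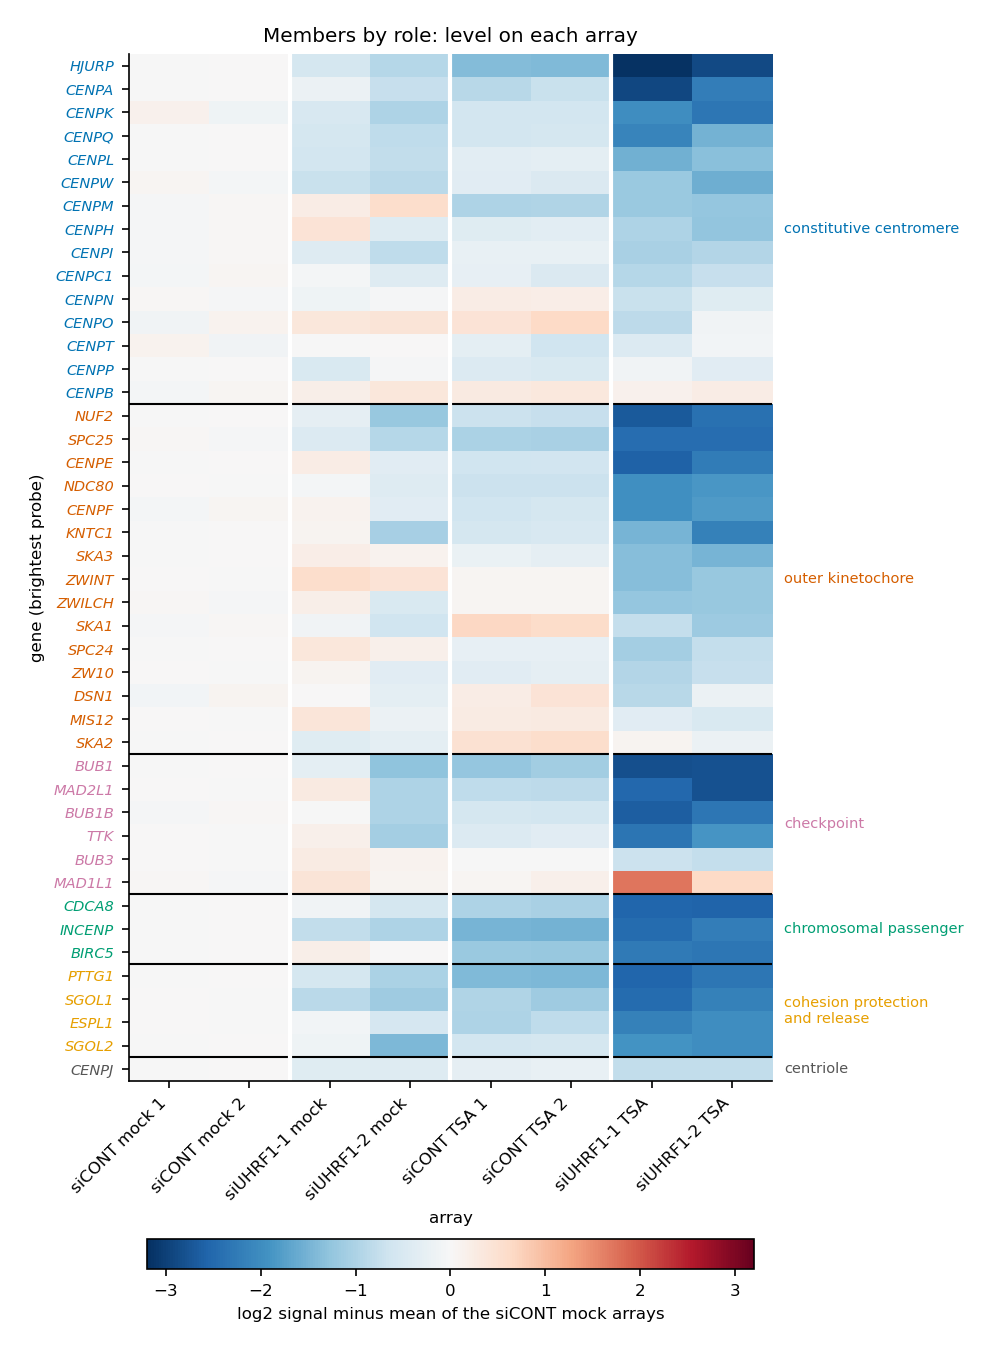
Log2 signal of each member's brightest probe minus its mean in the siCONT mock arrays, for each of the 8 arrays (columns) and 44 genes (rows, grouped by role and ordered by the change with both agents). Blue is lower and red higher, and the siUHRF1 TSA columns are the darkest blue, down to HJURP, while MAD1L1 is the red row there.

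Among the constitutive centromere genes, 8 of 15 were called lower with both agents (CENPA, HJURP, CENPH, CENPK, CENPL, CENPM, CENPQ and CENPW), with a median change of -1.13. HJURP, the chaperone that deposits CENP-A, fell the most of all members. It stood at 5.67 and 5.69 in siCONT mock, 5.12 and 4.75 with siUHRF1 mock, 4.29 and 4.27 in siCONT TSA, and 2.51 and 2.79 with siUHRF1 TSA. The change with both was -3.03 (SE 0.18, limma adjusted p = 0.000346), or 8.17-fold lower, and 11.1% and 13.5% of the siCONT mock signal was left with the respective siRNAs. Every group of HJURP lay apart from the others.

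CENPA, the centromeric histone itself, stood at 1.54 and 1.58 in siCONT mock and at 1.37 and 0.81 with siUHRF1 mock. In siCONT TSA it stood at 0.66 and 0.84, and with siUHRF1 TSA at -1.35 and -0.65 (SD 0.50, n = 2 siRNAs). The siUHRF1 mock and siCONT TSA arrays overlapped, and both siUHRF1 TSA arrays lay below all others. The change with both agents was -2.56 (SE 0.29, adjusted p = 0.00169), or 5.89-fold lower.

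CENPB, which binds a short box in alpha satellite DNA, moved little in any comparison. Its level was 0.82 and 0.97 in siCONT mock, 1.08 and 1.27 with siUHRF1 mock, 1.19 and 1.23 in siCONT TSA, and 1.03 and 1.14 with siUHRF1 TSA. The highest and lowest of the 8 arrays differed by 0.44, and the changes ran from -0.12 to 0.31 in the 5 pairwise comparisons. Its direction turned with the scaling: the change with both agents was 0.19 here and -0.21 when arrays were scaled to their median.

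The remaining 6 constitutive genes that were not called with both agents were CENPC1 (current symbol CENPC), a bridge from CENP-A chromatin to the outer kinetochore, and CENPI, CENPN, CENPO, CENPP and CENPT of the centromere-associated network. Their brightest probes changed by -0.23 to -0.99. CENPM, another network member, differed in pattern from HJURP, with 4.84 and 4.90 in siCONT mock, 5.11 and 5.43 with siUHRF1 mock, 3.89 and 3.92 in siCONT TSA, and 3.69 and 3.63 with siUHRF1 TSA. Its siUHRF1 mock arrays were the highest, and its TSA arrays were low in both siRNA conditions. The effect of UHRF1 depletion under TSA on CENPM was -0.25 and was not called.

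In the outer kinetochore, 9 of 15 genes were called lower with both agents, with a median change of -1.29. NUF2 (-2.53), SPC25 (-2.43) and NDC80 (-1.92), of the 4 subunits of the microtubule-binding NDC80 complex, were called, and SPC24 (-0.92) was not by its brightest probe. A dimmer SPC24 probe had a mean of -1.68 in siCONT mock and -3.04 with siUHRF1 TSA, where the siUHRF1-1 array was not well above background. NDC80 stood at 3.50 and 3.48 in siCONT mock, 3.42 and 3.07 with siUHRF1 mock, 2.81 and 2.79 in siCONT TSA, and 1.52 and 1.63 with siUHRF1 TSA. Its groups did not overlap, and the mean in the last group was 1.57 ± 0.08 (SD, n = 2 siRNAs). The kinesin CENPE (-2.42), CENPF (-1.90), KNTC1 (-1.83), SKA3 (-1.44), ZWINT (-1.29) and ZWILCH (-1.22) were the other genes called. DSN1 and MIS12, both of the MIS12 complex that joins the inner to the outer kinetochore, were at -0.54 and -0.43, and SKA2 was at -0.06.

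Among the 6 checkpoint genes, 4 were called lower with both agents, and the median change was -2.29. BUB1, a kinase that marks centromeric chromatin and recruits checkpoint proteins, stood at 3.61 and 3.65 in siCONT mock, 3.31 and 2.35 with siUHRF1 mock, 2.41 and 2.52 in siCONT TSA, and 0.82 and 0.86 with siUHRF1 TSA. With both agents its change was -2.80 (SE 0.31, adjusted p = 0.0015), or 6.95-fold lower, and the siUHRF1-2 mock array lay below both siCONT TSA arrays. MAD2L1, for which the mock values are given above, was at 2.21 and 2.20 in siCONT TSA and at 0.51 and 0.24 with siUHRF1 TSA. Its change with both was -2.65 (SE 0.40, adjusted p = 0.00397), or 6.29-fold lower. BUB1B (-2.48), which encodes the checkpoint protein BUBR1, and TTK (-2.11) were also called.

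BUB3, the partner of BUB1 and BUBR1, was at -0.72 and was not called. MAD1L1, which encodes the kinetochore anchor of MAD2, was the member called higher, at 1.18 (SE 0.35, adjusted p = 0.0402). Its level was 0.10 and 0.03 in siCONT mock, 0.47 and 0.15 with siUHRF1 mock, 0.13 and 0.22 in siCONT TSA, and 1.79 and 0.70 with siUHRF1 TSA. The siUHRF1-1 TSA array was thus the highest and the siUHRF1-2 TSA array closer to siCONT. The change was 0.63 without siUHRF1-1 TSA, 0.78 with median scaling and 0.96 with normexp background correction, none of which was called, nor was it with the siCONT arrays as 1 sample. Its second probe gave 1.09 (adjusted p = 0.0644).

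All 3 passenger genes were called lower with both agents, CDCA8 (borealin) at -2.54, INCENP at -2.34 and BIRC5 (survivin) at -2.29. BIRC5 stood at 5.75 and 5.76 in siCONT mock, 5.94 and 5.76 with siUHRF1 mock, 4.57 and 4.55 in siCONT TSA, and 3.49 and 3.43 with siUHRF1 TSA. All 4 cohesion genes were called lower, PTTG1 at -2.43, SGOL1 (current symbol SGO1) at -2.32, ESPL1 (separase) at -2.07 and SGOL2 (current symbol SGO2) at -1.94. PTTG1 stood at 6.22 and 5.77 with siUHRF1 mock and at 4.25 and 4.48 with siUHRF1 TSA, apart from all other groups. CENPJ (current symbol CPAP), the centriole gene, was at 2.93 and 2.93, 2.55 and 2.52, 2.65 and 2.70, and 2.14 and 2.15 in the same order of groups. Its change with both, -0.79 (adjusted p = 0.00469), missed the 2-fold limit.

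**Figure D3:**
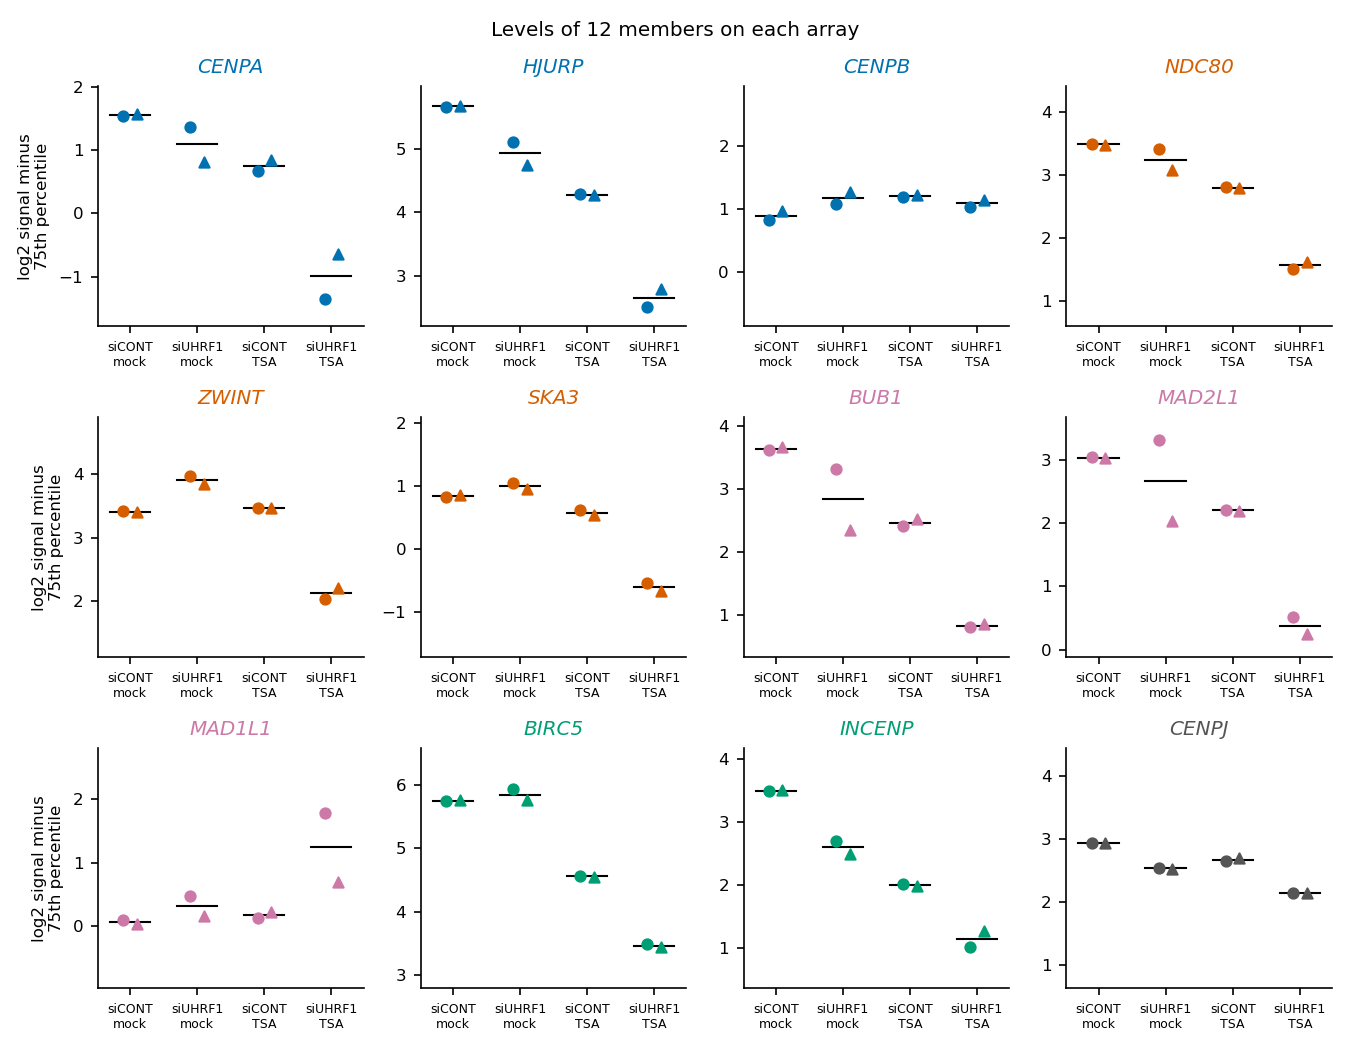
Log2 signal minus the array's 75th percentile (vertical axis, the same span in every panel) for 12 members in the 4 groups. Circles are array or siRNA 1, triangles array or siRNA 2, and lines the mean of both. CENPB stays within 0.44, CENPJ changes by -0.79 with both agents, ZWINT and SKA3 are lowest in the siUHRF1 TSA group, and MAD1L1 is high with siUHRF1-1 and TSA.

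The constitutive centromere genes and the outer kinetochore and checkpoint genes were then set side by side. With both agents, 8 of 15 constitutive genes and 13 of 21 outer kinetochore and checkpoint genes were called lower, beside 10.9% of all tested probes. The medians were -1.13 and -1.44, beside -0.14. With normexp background correction the class medians were -0.67 and -1.14. With second probes of genes that had several, the constitutive median was -1.44. The other class had this value with its brightest probes. CENPI, CENPN and CENPP were not called by their brightest probes, but each had another probe called lower. The constitutive count thus rests on the choice of probe. In the other class, SPC24 and MAD1L1 also had probes that differed in call in at least 1 comparison. For UHRF1 depletion under TSA, the counts were 5 of 15 and 13 of 21, beside 2.43% of all tested probes. The medians were -0.78 and -1.28, beside 0.0006. For TSA in UHRF1-depleted cells, the counts were 6 of 15 and 14 of 21, beside 8.83%, and the medians -0.75 and -1.59, beside -0.04. In both of these comparisons the second probes of CENPI, CENPM, CENPN and CENPP had lower changes than the brightest ones. That of CENPO had a smaller fall. These constitutive medians, and their distance from those of the other class, thus also rest on the choice of probe. For TSA alone, the counts were 1 of 15 (HJURP, the chaperone) and 2 of 21, beside 7.98%. No gene of either class was called for UHRF1 depletion alone, beside 0.616% called lower. The ranges overlapped widely, from -3.03 (HJURP) to 0.19 for the constitutive genes and from -2.80 to 1.18 for the others with both agents. The classes hold few genes of linked expression, so the difference between them was not tested.

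**Figure D4:**
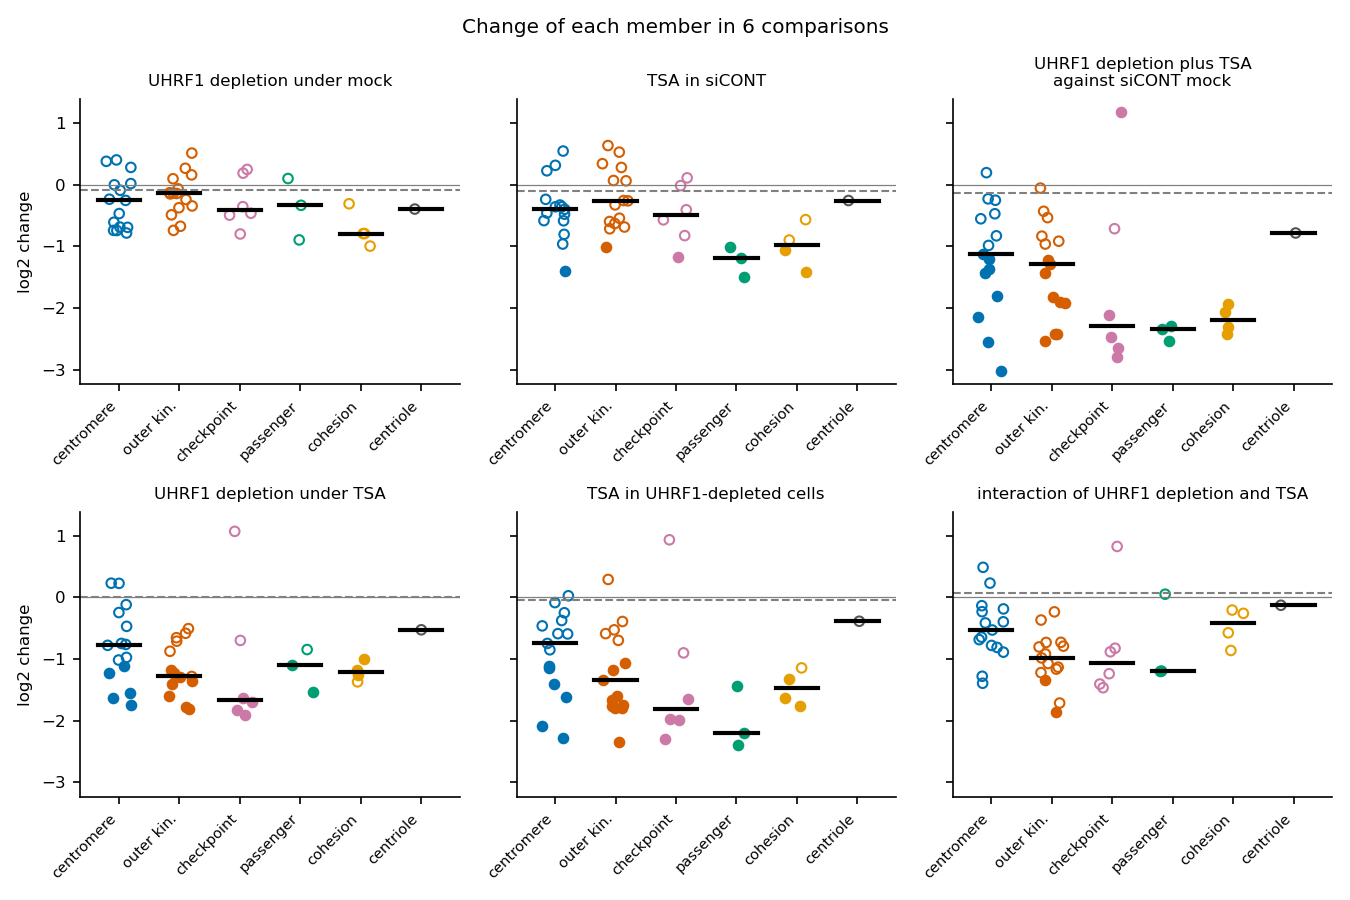
Log2 change (vertical axis) of each of the 44 members in 6 comparisons, by role (horizontal axis). Filled points were called at an adjusted p under 0.05 and a 2-fold change, black bars are medians by role and dashed lines the median of all tested probes. Under mock no point is filled, and with both agents the passenger and cohesion genes are all filled.

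The effect of UHRF1 depletion was also measured with TSA present in both arms. In these arrays 23 of 44 members were called lower, against 2.43% of 23844 tested probes, and the median change was -1.14. With the siCONT arrays as 1 sample none was called, and 0.0168% of all probes were. Without either of the siCONT TSA arrays the count was 0 as well, and it was 13 without either siCONT mock array or without the siUHRF1-1 TSA array. BUB1B had the largest fall, from 2.97 and 2.95 in siCONT TSA to 0.91 and 1.21 with siUHRF1 TSA, a change of -1.90. In mock it was at 3.49 and 3.57 in siCONT, 3.52 with siUHRF1-1 and 2.55 with siUHRF1-2, so the first siRNA lay within the siCONT arrays. MAD2L1 (-1.82) and NUF2 (-1.82) came next. NUF2 stood at 1.39 and 1.42, 1.13 and 0.20, 0.71 and 0.66, and -1.28 and -0.98 in siCONT mock, siUHRF1 mock, siCONT TSA and siUHRF1 TSA. SKA1, a part of the SKA complex that tracks microtubule ends, was called in this comparison and in no other, falling from 1.28 and 1.20 to -0.16 and -0.55. In siCONT mock it stood at 0.58 and 0.64. TSA alone changed it by 0.63, the highest change of the members there, without a call, so the fall is measured from a raised level.

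Conversely, TSA in UHRF1-depleted cells lowered 26 of 44 members by call, against 8.83% of 23912 tested probes, with a median change of -1.25 beside -0.04 over all. With the siCONT arrays as 1 sample, which leaves this comparison's arrays as they are, 21 were called lower, against 6.34% of probes. BIRC5 (-2.39), CENPE (-2.35) and MAD2L1 (-2.29) fell the most. CENPE, a kinesin that carries chromosomes to the spindle equator, stood at 1.61 and 1.65 in siCONT mock, 1.86 and 1.26 with siUHRF1 mock, 0.99 and 1.00 in siCONT TSA, and -0.96 and -0.61 with siUHRF1 TSA. Its siUHRF1 mock arrays lay on either side of siCONT mock.

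The interaction asked whether the change with both differed from the sum of the single changes. It was below 0 for 40 of 44 members, against 46.2% of tested probes, and above 0 for CENPP, CENPT, INCENP and MAD1L1, with a median of -0.80 beside 0.06 over all tested probes. Called were ZWINT, SKA3 and BIRC5, 3 of 44, all lower, against 0.691% of 24589 tested probes. At an unadjusted p under 0.05 there were 23 of 44 members, against 24.4% of tested probes in either direction. With the siCONT arrays as 1 sample none was called, and of all probes 0.0%. None was called without any 1 siCONT array or with the siRNA number as a block, 1 without siUHRF1-1 TSA, and 19 without siUHRF1-2 mock.

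ZWINT, which helps to hold the RZZ complex at the kinetochore, had the largest interaction, -1.86 (SE 0.19, adjusted p = 0.0247). It stood at 3.41 and 3.40 in siCONT mock, 3.98 and 3.85 with siUHRF1 mock, 3.47 and 3.47 in siCONT TSA, and 2.03 and 2.20 with siUHRF1 TSA. Depletion raised the mean under mock by 0.51 without a call, and under TSA the change was -1.35. The second ZWINT probe, at another position of the gene, gave an interaction of -1.95. SKA3 stood at 0.82 and 0.85, 1.04 and 0.95, 0.62 and 0.54, and -0.53 and -0.66 in the same order of groups, an interaction of -1.33 (adjusted p = 0.0426). For BIRC5 the interaction was -1.19 (adjusted p = 0.0486). In ZWINT the low values belonged to the siUHRF1 TSA arrays alone, in SKA3 the siCONT TSA arrays lay a little below siCONT mock, and in BIRC5 they were low as well. INCENP had an interaction of 0.05 and was not called.

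**Figure D5:**
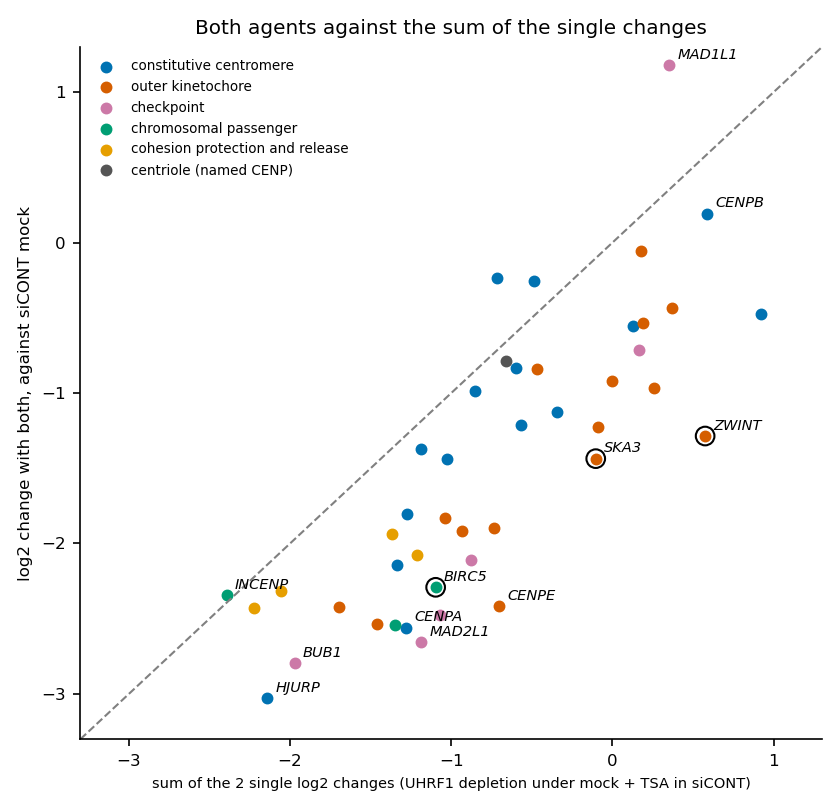
Log2 change with both agents (vertical axis) against the sum of the log2 changes with each alone (horizontal axis) for the 44 members, coloured by role. On the dashed line both are equal; 40 points lie below it, and circles mark the called interactions of ZWINT, SKA3 and BIRC5.

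Several genes had more than 1 probe, and the probes did not always give the same call. Of 13 such members, 7 had probes that differed in call in at least 1 comparison (CENPI, CENPN, CENPP, MAD1L1, SGOL1, SGOL2 and SPC24). SGOL1, which protects centromeric cohesin, was the clearest case. Its brighter probe, shown above, stood at 1.41 and 1.38 in siCONT mock, 0.53 and 0.26 with siUHRF1 mock, 0.42 and 0.24 in siCONT TSA, and -1.07 and -0.77 with siUHRF1 TSA. The second probe, at hg19 chr3:20202306-20202365, stood at -1.20 and -0.94, -0.78 and -0.66, 0.36 and 0.15, and -1.38 and -0.97 in the same order. With TSA alone the first changed by -1.06 and the second by 1.32 (adjusted p = 0.00632), both called, and the array annotation assigns the probes to different transcripts. Under TSA, UHRF1 depletion changed the first by -1.26 and the second by -1.43. The second probe had an interaction of -1.78 (adjusted p = 0.0483).

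CENPI was not called with its brightest probe (-0.99 with both agents), and its other probes were called at -2.07 and -1.95. CENPN was at -0.56 with its brightest probe at -1.44, called, with the second and at -0.04 with the third, and CENPP at -0.23 and at -1.57, called. The second SGOL2 probe was well above background in the siCONT mock arrays and in no other array. It was at least 2.52-fold lower with both agents, the bound being set against the dimmest probes well above background on each array (adjusted p = 0.00606). In 13 members the brightest probe was called in none of the 5 pairwise comparisons: BUB3, CENPB, CENPC1, CENPI, CENPJ, CENPN, CENPO, CENPP, CENPT, DSN1, MIS12, SKA2 and ZW10.

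The promoter windows were read against these calls. Of the 28 members called lower with both agents, 22 had a window, and a CHR stood in 16 of them (72.7%), a CCAAT in 17 (77.3%) and both in 12 (54.5%). Of the 15 members with a window that were not called lower, a CHR stood in 5 (33.3%), a CCAAT in 6 (40%) and both in 3 (20%). HJURP, CENPA, CDCA8, INCENP and ZWINT, shown above, carried both motifs before the start, and CENPB, CENPT and CENPJ carried neither. Some members went the other way. CENPE was called lower and carried neither motif, and CENPC1 and ZW10 carried both before the start and were not called. BUB1 had its CHR just after the start.

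Other genes of these processes were counted in the same way. Over all tested probes, 10.9% were called lower with both agents, with a median of -0.14. The shares called lower were 7.98% for TSA alone and 0.616% for UHRF1 depletion under mock. Of 28 further centromere and kinetochore genes, 26 were on the array by name, and 14 were called lower with both agents and 0 higher, with a median of -1.15. For TSA alone the count was 9 and for UHRF1 depletion under mock 0. KIF2C (-3.29), a microtubule-depolymerising kinesin, and CDC20 (-3.08), the target of the checkpoint, changed the most. Of the 17 genes of the anaphase-promoting complex and its regulators, 6 were called lower with both agents, with UBE2C (-2.85) and ANAPC1 (-2.21) at the low end and a median of -0.45. Of 13 cohesin genes, 4 were called lower (ESCO2 at -1.76 and CDCA5 at -1.71 the largest), with a median of -0.64. Of 7 tested condensin genes, 6 were called lower (SMC2 at -2.22 and NCAPD3 at -2.11 the largest), with a median of -1.82. None of the genes in these 4 lists was called higher with both agents, against 14.3% of all tested probes.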

How the data were processed

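Total RNA of DLD1 cells was labelled with Cy3 and hybridised to 8 1-colour Agilent SurePrint G3 Human GE v2 arrays. Per the labels and file headers, the authors quantified spot intensity with Agilent Feature Extraction 10.7 (header version 10.7.3.1). The deposited intensity is background-subtracted and detrended, with no scaling between arrays; the series table deposited beside it holds the same intensity rounded to 3 significant digits. Spots of a probe were averaged without outlier spots, and log2 intensity minus the array's 75th percentile was fitted with limma 3.58.1 (R 4.3.3) to 4 group means over all probes and 8 arrays. Probes well above background on both arrays of a compared group were tested, with Benjamini-Hochberg adjustment over all of them. A gene's brightest probe stood for it. All 44 members are accounted for by role; values on every array are given for a gene of each role, the 3 largest called falls and rises per comparison and called interactions. Members and lists were chosen with earlier results of these data known. Nothing states that arrays of a group came from separate cultures, so p-values measure only the spread between these arrays, and their number limits precision. Current symbols came from RefSeq (GRCh38.p14), matching all 44 members by transcript or name, and 4 have another symbol now. RefSeq promoter windows were matched for 37 members. Fits were tested on simulated data with equal and independent noise on every array. Those data did not mimic the unequal spread of siCONT and siUHRF1 arrays. Other scalings, filters, siCONT averaging, a replicate block, the methods' t-test, other probes and leaving out each array were tried. Of the further genes listed, 2 had no probe of that name.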

Additional observations from a re-analysis of the deposited data

Results flagged for a closer look

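In 3 members the effect of UHRF1 depletion differed between TSA and mock by the test of the interaction. The effect under TSA minus that under mock was -1.33 on the log2 scale for SKA3, -1.86 for ZWINT and -1.19 for BIRC5. With the siCONT arrays as 1 sample the adjusted p-values were 0.627, 0.467 and 0.689.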

How the results depend on the processing

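Of 89 calls of members, SGOL1 with TSA alone was the 1 that changed direction, at 1.32 with its second probe. For UHRF1 depletion under mock, where no member was called, 1 was with the authors' table and 2 with no minimum fold. For TSA in siCONT, 8 were called, 0 with the siCONT arrays as 1 sample, 4 with quantile normalization, and 5 with the 75th percentile over detected probes or normexp. For UHRF1 depletion under TSA, 23 were called, and 0 with the siCONT arrays as 1 sample or by the methods' t-test after adjustment. For TSA in UHRF1-depleted cells, 26 were called, 17 by the methods' t-test unadjusted and 0 after adjustment. For the interaction, 3 were called, 0 with the siCONT arrays as 1 sample, 0 with probes above background on all arrays only, 1 without a filter on dim probes, 7 with quantile normalization and 11 with normexp. With the spread estimated from probes above background, a setting chosen after seeing the data, the interaction gave 5.

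Leaving out 1 array at a time gave 0 to 6 members for UHRF1 depletion under mock, 4 to 8 for TSA in siCONT, 0 to 25 for UHRF1 depletion under TSA and 0 to 19 for the interaction. With both agents the count stayed within 1.5 times the 29 reported under every alternative run. Where this leaves a group with 1 array, it is assumed to vary like the others. With the replicate number as a block, the interaction gave 0 members and no other count moved by over 1.5 times. The number is the siRNA in the siUHRF1 groups, whose deviations correlated at 0.34, and only a number in siCONT.

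The median change of the constitutive genes with both agents (-1.13) was -1.53 with median scaling, -0.67 with normexp and -1.44 with second probes. That of the outer kinetochore and checkpoint genes (-1.44) was -1.84 with median scaling, -1.19 with the percentile over detected probes, -1.14 with normexp, and -1.50 to -1.37 without 1 of the arrays. Median scaling moved all probes from -0.14 to -0.54 in this comparison, and the percentile over detected probes moved them to 0.10. The members minus all probes stood at -1.30 each time. This was fixed in advance, because these scalings shift all probes of an array by the same amount. The cause of the moves with normexp, with second probes or without 1 of the arrays was not tested. Of the 60 member probes, 56 were well above background on all 8 arrays, and the second SGOL2 probe was so on 2 and the third CENPM probe on 0.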
